A study of Mus musculus with 8 samples.

Results

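NK cells were taken here as droplet barcodes that carried at least 2 UMIs (unique molecular identifiers, each standing for 1 captured RNA molecule) of Ncr1 and Klrb1c together and none of Cd3d, Cd3e, Cd3g, P2ry12 and Tmem119. Ncr1 encodes the activating receptor NKp46 and Klrb1c encodes NK1.1. Cd3d, Cd3e and Cd3g encode chains of the T cell receptor complex, and P2ry12 and Tmem119 mark microglia. The members were thus chosen by measured UMI counts of these 7 genes, whose levels are no finding here. Barcodes with at least 1000 UMIs and 200 to 6000 genes were considered, if mitochondrial genes gave no more than 10% of their UMIs, which left 39632 barcodes in 4 gene expression libraries. Of these, 731 were NK cells. They were set against 6043 CD8 T cells of the same libraries, which are barcodes with at least 2 UMIs of Cd3d, Cd3e and Cd3g together and at least 2 of Cd8a and Cd8b1.

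The cells came from tissue labelled as brain of EPZFTA-RELA mice of the genotype NestinCreERT2;Fus1;RFPTdT, which develop ependymoma, and were stained for the leukocyte marker CD45 and the erythroid marker Ter119 and sorted, with no gate given in the labels. In this model an inducible Cre under the Nestin promoter switches on the ZFTA-RELA fusion, so that the fusion starts in Nestin-expressing neural cells, in treated mice and controls alike. At 3 weeks of age the mice were assigned at random to 1 intrathecal injection of mavrilimumab at 5 mg per kg, an antibody directed at GM-CSF receptor alpha, or of a control antibody that the labels call vehicle IgG. Tissue is described as coming from mice of 6 to 8 weeks, followed to a humane endpoint, with the tumors of several mice pooled, so that a library is the replicate and the spread between mice cannot be seen.

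There were 2 libraries labelled vehicle IgG and 2 labelled mavrilimumab, with totals of 24354457 to 148657643 UMIs. The labels of treatment are in doubt. All 3 T cell receptor (TCR) files analysed here carry an inner name of the other treatment. The TCR library labelled mavrilimumab 1 shared 90.6% of its cell barcodes with the expression library labelled mavrilimumab 2, and the one labelled mavrilimumab 2 shared 86.0% with the expression library labelled mavrilimumab 1. The TCR library labelled vehicle IgG 1 shared 94.3% with the expression library of the same label. CD8 T cells were 7.22% and 7.67% of kept barcodes in the expression libraries labelled vehicle IgG and 31.6% and 34.5% in those labelled mavrilimumab. In this measure libraries of one label lay together and the labels did not overlap. Set against T cells (at least 2 Cd3 UMIs and none of P2ry12 and Tmem119), the labels did overlap. There were 71 CD8 T cells to 223 T cells and 2051 to 4901 with the label vehicle IgG. With the label mavrilimumab there were 2026 to 5381 and 1895 to 2764. Directions between treatments below follow the labels. Pairs of expression libraries had 0 to 60 kept barcodes in common, and no barcode was called an NK cell in more than 1 library.

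NK cells are innate lymphocytes that kill infected, stressed or transformed cells without a rearranged antigen receptor. Germline-encoded receptors set their activity. Activating receptors signal through adaptors such as DAP12, whereas the Ly49 receptors (Klra genes) and the CD94-NKG2A pair (Klrd1 and Klrc1) mostly read MHC class I on other cells and restrain killing. NKp46 and NK1.1 are shared by conventional NK cells, which depend on the transcription factor Eomes, by tissue-resident type 1 innate lymphoid cells (ILC1), which mostly lack it, and by some T cells, so that these genes alone do not separate NK cells from ILC1.

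NK cells numbered 4 and 406 in the expression libraries of the label vehicle IgG, replicates 1 and 2, and 14 and 307 in those of the label mavrilimumab. Both Ncr1 and Klrb1c were detected in 4, 311, 13 and 284 of these cells, Ncr1 alone in 0, 25, 1 and 4, and Klrb1c alone in 0, 70, 0 and 19. Just inside the gate were 0, 73, 1 and 23 cells with exactly 2 UMIs of the pair, and just outside it 2, 101, 3 and 20 barcodes with 1 UMI. A further 8, 220, 100 and 458 barcodes passed the minimum of the 2 NK genes but held a Cd3 UMI and were left out. In each library except that labelled vehicle IgG 2, more barcodes were removed by the limit on Cd3 than were kept as NK cells. In the library labelled mavrilimumab 2, 16.0% of CD8 T cells also held at least 2 UMIs of the pair, against 1.18% to 4.68% in the other libraries. NK cells were captured at very different depths, with a median of 13013.5, 2613, 4024 and 11102 UMIs in the same order, and their mitochondrial shares had medians of 1.66% to 2.25%.

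The other markers named for NK cells, which the gate did not use, were present. Klre1, a lectin-like receptor, had a UMI in 60.6% of the NK cells labelled vehicle IgG 2 and 89.3% of those labelled mavrilimumab 2. It had one in 10.8% and 20.2% of the CD8 T cells and in 1.02% and 1.40% of the microglia of these libraries, the latter taken as cells that should lack the gene, with median depths of 4678.5 and 10927.5 UMIs. Klra8, the activating receptor Ly49H, was detected in 16.7% and 37.8% of NK cells, in 0.0975% and 0.422% of CD8 T cells and in 5 of 714 microglia of the latter library. Eomes was detected in 18.5% and 54.7% of NK cells, in 9.80% and 26.2% of CD8 T cells and in 1.36% and 0.560% of microglia. After each cell was thinned to 1000 UMIs, Eomes was detected in 9.11% and 14.3% of NK cells, so that most of the gap between these libraries in the share of cells with a UMI was not seen at equal depth. In the libraries labelled vehicle IgG 1 and mavrilimumab 1, Eomes was found in 4 of 4 and 7 of 14 cells.

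TCR contigs gave a readout that the gate did not use. Productive, high-confidence contigs were assembled for 2 of the 307 NK cells of the library labelled mavrilimumab 2, or 0.651% (exact 95% interval 0.079% to 2.33%), and for 0 of 14 and 0 of 4 cells of those labelled mavrilimumab 1 and vehicle IgG 1, counts that allow up to 21.4% and 75.0% by a limit of 3 cells, used for each count of 0 here in place of the exact interval. The same share was 94.0%, 89.5% and 93.0% in the CD8 T cells of these libraries. Among microglia it was 0.140%, 0.500% and 0 of 581 cells, which allows up to 0.516%. Barcodes that had the NK genes but also a Cd3 UMI carried a productive contig in 75.8%, 66.0% and 75.0% of cases. A contig of any kind, which includes unproductive and low-confidence assemblies, was found in 55.4%, 71.4% and 75.0% of NK cells and in 6.44%, 14.0% and 22.2% of microglia. Contigs at TCR loci were thus more frequent in the gated cells than in microglia, but productive ones were few, whereas most barcodes turned away for a Cd3 UMI had one. The TCR library of the cells labelled vehicle IgG 2 was not analysed here.

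The share of NK cells differed more between the 2 libraries labelled mavrilimumab than between the labels. NK cells were 0.407% (exact 95% interval 0.111% to 1.04%) and 1.52% (1.37% to 1.67%) of kept barcodes in the libraries labelled vehicle IgG 1 and 2. With the label mavrilimumab they were 0.218% (0.119% to 0.366%) and 5.59% (5.00% to 6.23%). The libraries labelled mavrilimumab were both the lowest and the highest of the 4, and the groups overlapped. Their mean was 2.91% ± 3.80 (SD, n = 2), against 0.962% ± 0.786 (SD, n = 2) for the label vehicle IgG, with a two-sided exact permutation p = 1.0. With 6 possible splits, 0.333 is the smallest p this test allows.

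Kept barcodes also include cells that are not lymphocytes, such as microglia, so the share among lymphocytes was compared as well. Among NK and T cells together, NK cells made up 1.76% and 7.65% with the label vehicle IgG (replicates 1 and 2) and 0.2595% and 10.0% with the label mavrilimumab, with means of 4.71% ± 4.16 and 5.13% ± 6.89 (SD, n = 2 each; exact permutation p = 1.0). Per 100 CD8 T cells there were 5.63, 19.8, 0.691 and 16.2 NK cells in this order (exact permutation p = 0.667 between labels). On each scale the library labelled mavrilimumab 1 had the fewest NK cells, 23.4-fold to 38.5-fold below the other library of that label. These folds depend on the gate. Without the limit on Cd3, 114 and 765 barcodes passed in the libraries labelled mavrilimumab 1 and 2, against 14 and 307 with it. Leaving out the library labelled mavrilimumab 2 turned the difference between labels from 1.94 to -0.744 percentage points of kept barcodes. Intervals cover counting error only.

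**Figure D1:**
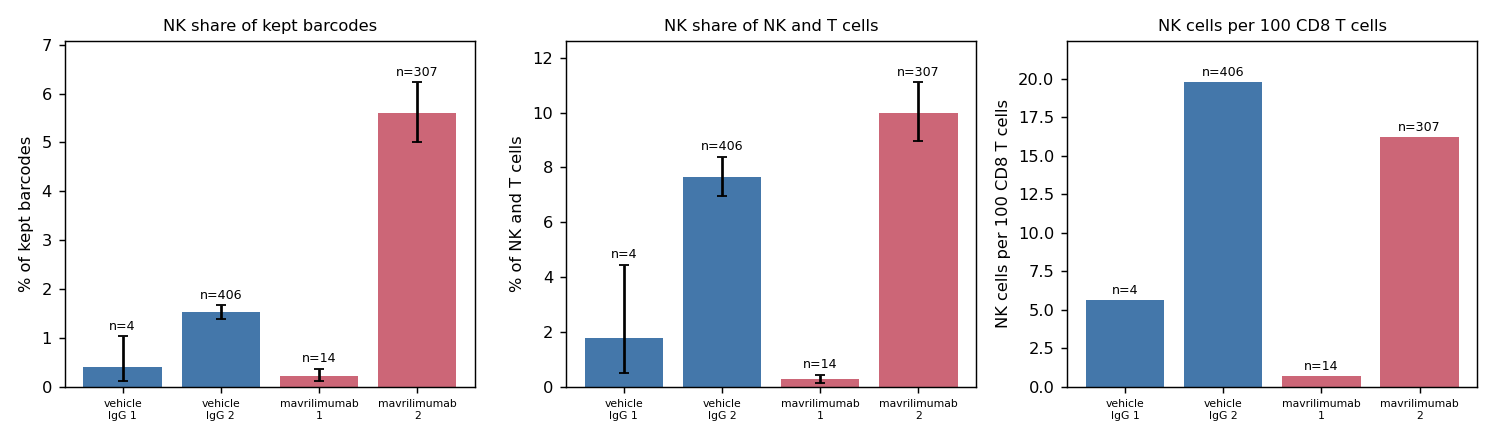
Each bar is 1 expression library, named by its label. The panels show NK cells as a percent of kept barcodes, as a percent of NK and T cells, and per 100 CD8 T cells; black bars in the first 2 panels are exact 95% intervals that cover counting only, and n is the number of NK cells. The libraries labelled mavrilimumab 1 and 2, at 0.218% and 5.59% of kept barcodes, enclose both libraries labelled vehicle IgG.

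To ask what set NK cells apart from CD8 T cells of the same tissue, UMIs were summed per library and class. Sums were compared with edgeR's quasi-likelihood test, with the library as a block, in the 3 libraries with at least 10 NK cells, which are those labelled vehicle IgG 2, mavrilimumab 1 and mavrilimumab 2. Values in 3 libraries are given in that order below, as CPM, the UMIs of a gene scaled to the total UMIs of the class in that library. Fold changes are log2 values of NK against CD8 T cells. Of 13680 genes tested, 623 were higher in NK cells (4.55%) and 825 lower (6.03%), or 10.6% in either direction, at a Benjamini-Hochberg adjusted p under 0.05. The median log2 fold change of all genes tested was -0.03. The 9 genes of both gates were left out. Without the library labelled mavrilimumab 2, 642 genes were called, 251 higher and 391 lower, and without that labelled vehicle IgG 2 there were 547 lower. Without the library as a block, 198 genes were called. Sums in the library labelled mavrilimumab 1 come from 14 NK cells, so that single cells can set a value there.

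**Figure D2:**
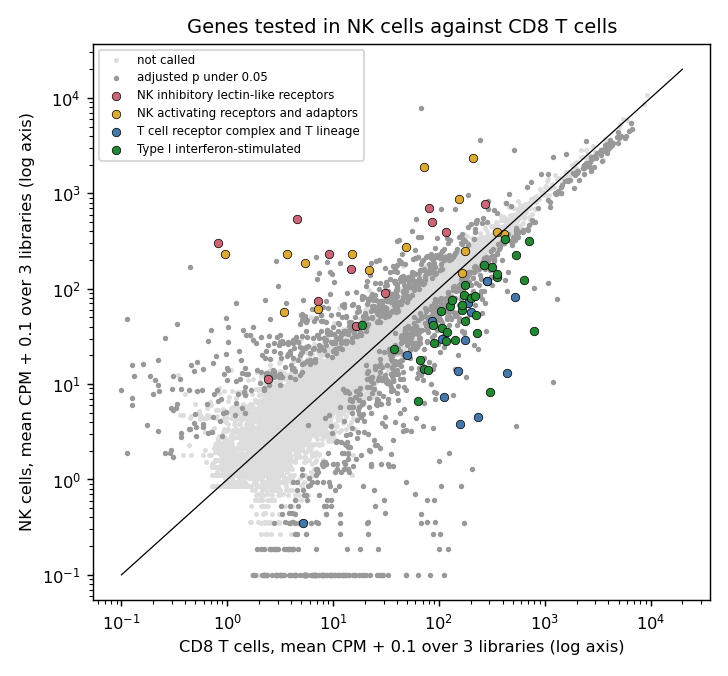
Each point is a gene, placed by its mean CPM + 0.1 over 3 libraries in CD8 T cells (horizontal) and NK cells (vertical), both on log axes; dark gray marks an adjusted p under 0.05 and colors mark 4 gene lists. Lectin-like receptors and most activating receptors and adaptors of NK cells lie above the line of equal levels, and T cell receptor genes and nearly all of the interferon-stimulated genes lie below it.

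Among activating receptors and their adaptors, 11 of 16 genes were higher in NK cells, 1 was lower and 4 were not called, with a median log2 fold change of 2.73. Tyrobp, which encodes the adaptor DAP12, was at 1228, 2102 and 2321 CPM in NK cells and at 73.4, 20.5 and 124 CPM in CD8 T cells. Its lowest NK value was above its highest CD8 T value, with a log2 fold change of 4.74 (SE 0.42; edgeR adjusted p = 4.1e-05). Fcer1g, the adaptor FcRγ, was at 2085, 2176 and 2842 CPM against 199, 50.5 and 383 CPM. Klrk1, the receptor NKG2D, was at 650, 1146 and 815 CPM against 131, 181 and 150 CPM, with a log2 fold change of 2.33 (edgeR adjusted p = 1.1e-06). Neither gene overlapped between the classes. The kinase Syk was higher by 3.73 on the log2 scale, whereas Zap70, its relative in T cells, was at 98.2, 137 and 204 CPM in NK cells and 123, 183 and 194 CPM in CD8 T cells and was not called. The member that was lower was Cd247, the zeta chain shared with the T cell receptor complex, at 58.9, 200 and 103 CPM against 207, 358 and 281 CPM. Cd226, Slamf7 and Hcst were also not called, with log2 fold changes of 0.03, 0.36 and -0.28.

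Of the 12 genes listed as inhibitory lectin-like receptors, 11 were higher and none lower, with a median log2 fold change of 2.61 and only Klra1 not called. Klrb1b, an inhibitory relative of NK1.1, was at 754, 147 and 731 CPM in NK cells and at 7.54, 0.577 and 5.23 CPM in CD8 T cells. The values of the classes were far apart in each library, with a log2 fold change of 6.90 (SE 0.22; edgeR adjusted p = 8.7e-08). Klrc1 and Klrd1, which form the CD94-NKG2A pair, were higher by 1.60 and 1.36. Klra4 had the highest log2 fold change of the list at 7.91, with 144, 547 and 224 CPM against 0.284, 0.0962 and 1.77 CPM, but it encodes Ly49D, which is an activating receptor. Klra8, the activating Ly49H, was at 123, 336 and 237 CPM against 0.427, 0.192 and 1.96 CPM. Ly49 genes are near-identical copies between which reads can be shared, so values of single members are uncertain.

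Transcription factors separated the classes less. Of 14 genes, 7 were higher, Ets1 was lower and 6 were not called, with a median of 0.69. Eomes was at 80.8, 231 and 149 CPM in NK cells and 36.1, 157 and 48.5 CPM in CD8 T cells, higher in NK cells of each library although the ranges overlapped across libraries (log2 fold change 1.11, SE 0.20; edgeR adjusted p = 0.0043). Tbx21, which encodes T-bet, was at 134, 284 and 252 CPM against 63.6, 116 and 104 CPM and was also called. Irf8 was at 161, 526 and 286 CPM against 40.3, 24.6 and 60.1 CPM and had the highest log2 fold change of the list, 2.56. Tox, Ikzf3 and Zfp683 were not called, with log2 fold changes of -0.05, 0.12 and 0.11. Among 14 maturation genes, 9 were higher and 3 lower. The integrin genes Itgax, Itga2 and Itgam were higher by 4.56, 3.07 and 2.57. S1pr5, the receptor used by NK cells to leave lymphoid tissue, was higher by 3.74. Cd27 and Il7r, carried by less mature NK cells but also by these CD8 T cells, were lower, with log2 fold changes of -1.72 and -3.29. A lower level than in CD8 T cells does not show how mature the NK cells were. Il7r was at 52.9, 0 and 16.9 CPM against 256, 191 and 252 CPM. Kit, also carried by immature NK cells and progenitors, was higher, at 23.4, 10.5 and 10.98 CPM against 9.25, 0.481 and 0.489 CPM (log2 fold change 2.76, SE 0.70; edgeR adjusted p = 0.030).

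The cytotoxic program was split. Of 15 effector genes, 10 were higher in NK cells, Gzmk was lower and 4 were not called, with a median of 0.96. Gzma was at 2632, 1934 and 6325 CPM in NK cells and 298, 109 and 323 CPM in CD8 T cells. The classes did not overlap, with a log2 fold change of 3.72 (SE 0.21; edgeR adjusted p = 1.6e-06). Prf1, the pore-forming perforin, was at 304, 158 and 587 CPM against 37.3, 99.1 and 55.0 CPM, a log2 fold change of 2.59. Gzmb was at 1781, 1345 and 4023 CPM against 905, 472 and 2199 CPM and differed by only 0.96, with CD8 T cells labelled mavrilimumab 2 above NK cells of the other libraries. Nkg7, Fasl, Lamp1 and Gzmm were not called, Nkg7 with a log2 fold change of -0.02. Gzmk, a granzyme of memory T cells, was at 0.755, 0 and 2.81 CPM in NK cells and 90.5, 436 and 90.9 CPM in CD8 T cells (log2 fold change -5.60).

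Gzmc, a granzyme, stood further apart. It was at 3300, 10984 and 9454 CPM in NK cells and 63.9, 21.6 and 117 CPM in CD8 T cells, a log2 fold change of 6.78 (SE 0.55; edgeR adjusted p = 2.2e-05). It had a UMI in 44.8%, 35.7% and 60.6% of NK cells. In the library labelled mavrilimumab 1, 762 of its 1045 UMIs sat in 1 cell, whereas the cell with most held 10.6% and 5.52% of them in the libraries labelled vehicle IgG 2 and mavrilimumab 2. Gzmc lies in a cluster of near-identical granzyme genes whose reads can be assigned to a neighbor, so the value may stand for more than this gene.

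Among cytokines and chemokines, 3 of 12 tested genes were higher, Tnf was lower and 8 were not called. Xcl1, which attracts cross-presenting dendritic cells, was at 1403, 5003 and 2066 CPM in NK cells and 508, 366 and 675 CPM in CD8 T cells. No values overlapped (log2 fold change 2.10, SE 0.35; edgeR adjusted p = 0.0029), and 57.8% of its UMIs in the library labelled mavrilimumab 1 sat in 1 cell. Ifng was at 51.3, 63.1 and 52.1 CPM against 43.2, 57.5 and 44.3 CPM and was not called, with a log2 fold change of 0.11 (SE 0.16). Ccl3 and Tgfb1 were higher by 2.00 and 0.95, but Ccl3 was lower in NK than in CD8 T cells in the library labelled mavrilimumab 1, at 42.0 against 74.0 CPM. Csf2, which encodes GM-CSF, was at 4.53, 31.5 and 17.6 CPM against 5.40, 3.46 and 8.32 CPM and was not called.

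Of 14 cytokine receptor genes tested, 4 were higher and Il21r was lower. Il2rb, the shared chain for IL-2 and IL-15, was at 654, 809 and 1004 CPM against 219, 290 and 366 CPM (log2 fold change 1.37, SE 0.11; edgeR adjusted p = 2.5e-05). Receptor genes for IL-12 and IL-18, both of which prime NK cells, were the others: Il12rb2, Il18r1 and Il18rap were higher by 1.39, 1.16 and 2.10. The receptor that mavrilimumab is directed against had few UMIs in these cells. Its alpha chain gene Csf2ra was at 15.1, 0 and 16.6 CPM in NK cells and 7.97, 4.33 and 7.72 CPM in CD8 T cells and was not called (log2 fold change 0.82, SE 0.41), and Csf2rb, at 1.51, 0 and 7.66 CPM in NK cells, fell below the filter on low counts.

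Homing genes ran the other way. Of 14 genes, 6 were lower in NK cells, 2 higher and 6 not called, with a median of -0.60. Ccr7, which directs cells to lymph nodes, was at 4.53, 10.5 and 8.94 CPM against 95.6, 44.4 and 140 CPM (log2 fold change -4.13, SE 0.24; edgeR adjusted p = 2.0e-06). S1pr1, Cxcr3 and Cxcr6 were lower, with log2 fold changes of -2.55, -2.07 and -1.65. Ccr2, which draws cells to inflamed tissue, was at 109, 326 and 253 CPM against 23.8, 77.1 and 33.6 CPM and was higher by 2.35. Genes of ILC1 and of tissue residency were split, with 6 of 14 higher and 3 lower. Itga1, the integrin CD49a, was at 304, 368 and 441 CPM against 170, 131 and 196 CPM (log2 fold change 0.99). Tmem176a and Tmem176b were higher by 2.29 and 2.17, whereas the residency markers Cxcr6 and Cd69 were lower, at -1.65 and -0.76. Among 11 checkpoint receptor genes, Tigit, Klrc1 and Tnfrsf9 were higher by 0.98, 1.60 and 1.94. Pdcd1, Havcr2, Ctla4 and Btla were lower, at -1.52, -2.57, -1.63 and -5.13, and Lag3 was not called.

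Genes stimulated by type I interferon were lower in NK cells almost throughout. Of 34 such genes, 29 were lower, Ifi44 was higher and 4 were not called, and the median log2 fold change was -1.20, where 6.03% of all genes tested were lower. Isg15, an interferon-induced ubiquitin-like protein, was at 85.3, 94.6 and 193 CPM in NK cells and 320, 1072 and 508 CPM in CD8 T cells. Its highest NK value was below its lowest CD8 T value, with a log2 fold change of -2.07 (SE 0.26; edgeR adjusted p = 0.00053). Ifit3, Rsad2 and Irf7 were lower, at -2.04, -1.55 and -1.12. Slfn1 and Ly6a had the lowest values, at -6.60 and -3.91, and both are also known as genes of T cells. Without the library block, 2 members were called lower and the median was -1.49. Over the settings that kept the block, 19 to 32 members were lower.

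The summed CPM of the whole interferon list in NK cells was 1672 and 1748 with the label vehicle IgG (replicates 1 and 2) and 2922 and 3714 with the label mavrilimumab. In the same order it was 5324, 4092, 12659 and 6619 in CD8 T cells and 2896, 1031, 11131 and 3970 in barcodes of 10 to 100 UMIs. These barcodes were taken to hold mostly free RNA. They numbered 6703 in the library labelled vehicle IgG 2 and 113600 to 135305 in the others. Whether they stand for the same kind of droplet in each library was not tested. NK cells had the lower sum of the classes in each library, also in that labelled vehicle IgG 1, which the test left out. The part of free RNA in these levels was not tested. MHC class I genes, many of which respond to interferon, were called lower for 8 of 14 members with a median of -0.59, Nlrc5 at -1.19 and Tap1 at -0.84. The chain B2m was at 4159, 6359 and 5340 CPM against 4385, 5894 and 5099 CPM and was not called, and neither were H2-K1 and H2-D1.

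**Figure D3:**
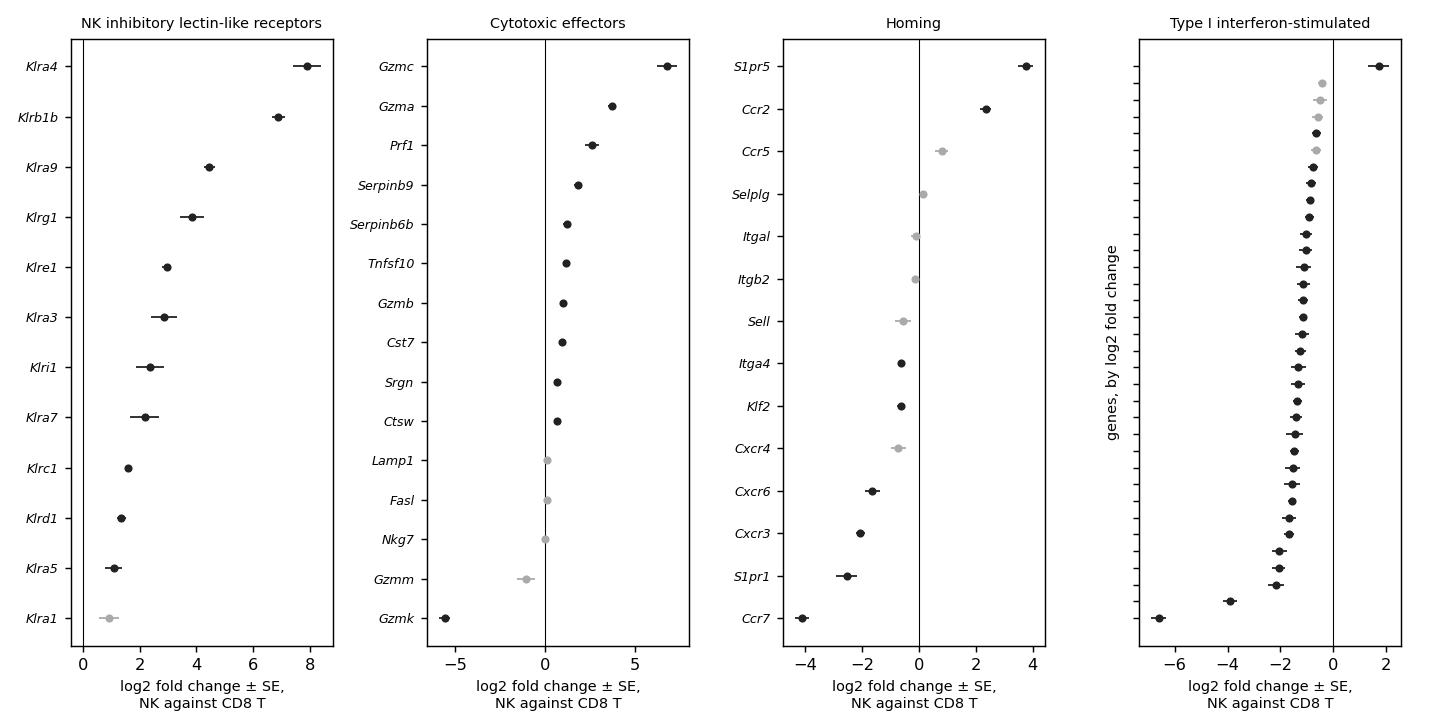
Each point is a gene with its log2 fold change of NK against CD8 T cells from edgeR over 3 libraries. Bars are standard errors derived from the log2 fold change and the F statistic of the test. Black points have an adjusted p under 0.05 and gray points do not. The last panel gives its genes in order of value without names. Of the 12 lectin-like receptor genes 11 are called above 0, and of the 34 interferon-stimulated genes 29 are called below it.

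For proliferation genes, few single genes reached the threshold. All 18 cell cycle genes had negative log2 fold changes, with a median of -0.90, but only Pcna, Mcm3, Mcm5 and Rrm2 were called. Without the library labelled mavrilimumab 2 none was called and 10 were negative, and without that labelled mavrilimumab 1 there were 16 called. Mki67 was at 82.3, 620 and 28.4 CPM in NK cells against 148, 142 and 167 CPM in CD8 T cells. The high value came from 1 cell, which held all 59 Mki67 UMIs of the NK cells labelled mavrilimumab 1. Among 14 immediate early and heat shock genes, Fosb, Jun and Ier2 were higher and Hspa1a, Hspa1b and Hsp90aa1 lower.

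T cell genes mark the limit on Cd3 in the gate and are given as a check. Of 14 genes of the T cell receptor complex and T lineage, 13 were lower, with a median of -2.60, and only Cd4 was not called. Trac, the constant region of the alpha chain, was at 6.04, 0 and 7.15 CPM in NK cells and 176, 269 and 259 CPM in CD8 T cells (log2 fold change -5.24). Trbc1, a constant region of the beta chain, was lower with a log2 fold change of only -0.83, at 40.8, 42.0 and 54.1 CPM against 64.1, 109 and 85.1 CPM. Of 84 variable and joining genes of both chains, 74 were lower, with a median of -8.89. In NK cells 61 of these 84 genes had no UMI, so that this median depends on the prior count, and it was -4.24 with those genes at their bound. Against a floor of 3 UMIs over the 3 libraries, Trbv3 was at least 201-fold lower, Trbv13-3 at least 115-fold, Trbv14 at least 85.9-fold, Trav3-3 at least 54.2-fold, and Trbv26 at least 52.7-fold. Trbv20, Trav13-1, Trbv31 and Trbv2 were at least 50.4-fold, 50.3-fold, 42.6-fold and 41.2-fold lower, and variable genes resemble each other, so single values are uncertain. The other genes with the lowest log2 fold changes were Dapl1, Sit1, which encodes a T cell adaptor, and Tbxa2r, the thromboxane receptor, which were at least 163-fold, 89.6-fold and 42.4-fold lower.

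The highest log2 fold changes in NK cells, besides Klra4, Klra8, Klrb1b and Gzmc, belonged to Khdc1a at 9.93, the gene ENSMUSG00000121359 at 8.11, Upp1 at 7.27, D5Ertd615e at 6.90, Adamts14 at 6.01, Klri2 at 5.93, Styk1 at 5.85 and Cma1 at 5.82. They are the first of 460 genes past the rule for naming in this direction, and fitted values of genes near 0 in CD8 T cells depend on the prior count. Khdc1a was at 10.6, 105 and 27.1 CPM in NK cells and 0, 0 and 0.0376 CPM in CD8 T cells, and 8 of its 10 UMIs in the library labelled mavrilimumab 1 sat in 1 cell. Upp1, which encodes uridine phosphorylase, was at 40.8, 52.6 and 34.5 CPM against 0.427, 0.0962 and 0.188 CPM. Styk1, a receptor-like kinase, was at 168, 200 and 213 CPM against 2.70, 1.54 and 4.14 CPM. Neither gene overlapped between the classes. Adamts14, a metalloprotease that trims procollagen, was at 49.1, 84.1 and 80.2 CPM against 2.13, 0.481 and 0.678 CPM. Cma1, a chymase best known from mast cells, was at 40.8, 21.0 and 48.5 CPM against 1.14, 0 and 0.678 CPM.

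Markers of other cell types were measured in the same sums. In NK cells, 3 to 10 of 10 microglia markers outside the gate had a UMI, with a summed level of 2899 and 509 CPM (label vehicle IgG, replicates 1 and 2) and 736 and 1152 CPM (label mavrilimumab), below the 10657, 1069, 2816 and 6248 CPM of barcodes of 10 to 100 UMIs. C1qa, C1qb and C1qc were at 0 in the 14 cells labelled mavrilimumab 1. Neutrophil markers summed to 0, 9.06, 0 and 13.5 CPM. Monocyte or macrophage markers, which include Ccr2, summed to 338, 140, 389 and 280 CPM. Barcodes of 10 to 100 UMIs had 290, 51.5, 376 and 572 CPM of these. B or plasma cell markers were at 196, 187, 263 and 287 CPM, against 79.6, 32.5, 4090 and 371 CPM in those barcodes. Oligodendrocyte markers were at 88.9, 781, 73.6 and 76.1 CPM in NK cells and 183, 389, 136 and 130 CPM in CD8 T cells. In the library labelled mavrilimumab 2, Il22 and Il17a, made by ILC3, and Il13 and Il5, made by ILC2, were at 0. Of 12 neural or tumor genes, none was called between NK and CD8 T cells. The part of these markers in the differences between the classes was not tested. Of the 10 microglia markers, 8 were called lower in NK cells and Gpr34 higher, but the gate of NK cells barred P2ry12 and Tmem119 and that of CD8 T cells did not. With CD8 T cells that held a UMI of either gene left out, an alternative added after the data were seen, 7 of these markers could be tested and none was called lower, while 31 interferon genes were. With cells left out that held at least 2 UMIs of C1q, S100a8, S100a9, Cd79a or Ms4a1, an alternative added after the data were seen, 30 interferon genes were lower.

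NK cells varied among themselves along Eomes. Cells with an Eomes UMI were set beside those without in the libraries labelled vehicle IgG 2 (75 and 331 cells) and mavrilimumab 2 (168 and 139 cells). This split was chosen after values were seen and a missing UMI need not mean a missing transcript, so the values are a description without a test. Cells with and without Eomes had median depths of 2609 and 2616 UMIs in the former library, and 13815 and 9499 UMIs in the latter. Cxcr6, the chemokine receptor of resident cells, was at 22 CPM with Eomes and 227 CPM without in the first of these libraries, and at 16.6 and 338 CPM in the other. Tmem176b was at 40.4 and 405 CPM, and at 41.4 and 406 CPM. Cd200r1 was at 14.7 and 75.1 CPM, and at 6.63 and 119 CPM. All 3 were lower in the cells with Eomes in both libraries.

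Most Ly49 receptors ran in the opposite direction. In the same order, Klra8 was at 257 CPM with Eomes and 88.4 CPM without, and at 331 and 84.6 CPM. Klra7, the inhibitory Ly49G, was at 514 and 112 CPM, and at 660 and 98.6 CPM. Prf1 was at 422 and 274 CPM, and at 761 and 308 CPM, so it too was higher with Eomes in both. Klrb1b, although it stands in the same list as Klra7, was at 463 and 830 CPM, and at 553 and 1018 CPM, and was thus lower with Eomes. Klra5, a Ly49 gene, was lower with Eomes as well, at 11.01 and 27.6 CPM, and at 95.7 and 99.9 CPM, a small gap in the latter library. Of 13679 genes tested between the classes, other than Eomes, 20.5% were higher with Eomes in both libraries and 29.6% lower in both, and these shares were 23.7% and 31.4% among the 7158 with a mean of at least 20 CPM in NK cells. By list, 10 of 14 genes of ILC1 and residency were lower with Eomes in both libraries and none was higher in both. Of 14 maturation genes 9 were higher in both and 4 lower, of 12 lectin-like receptor genes 8 and 3, of 15 cytotoxic genes 8 and 2, and of 16 activating receptor and adaptor genes 8 and 4. The integrin gene Itga1, used to mark ILC1, did not follow the split, at 345 and 293 CPM, and at 403 and 502 CPM.

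**Figure D4:**
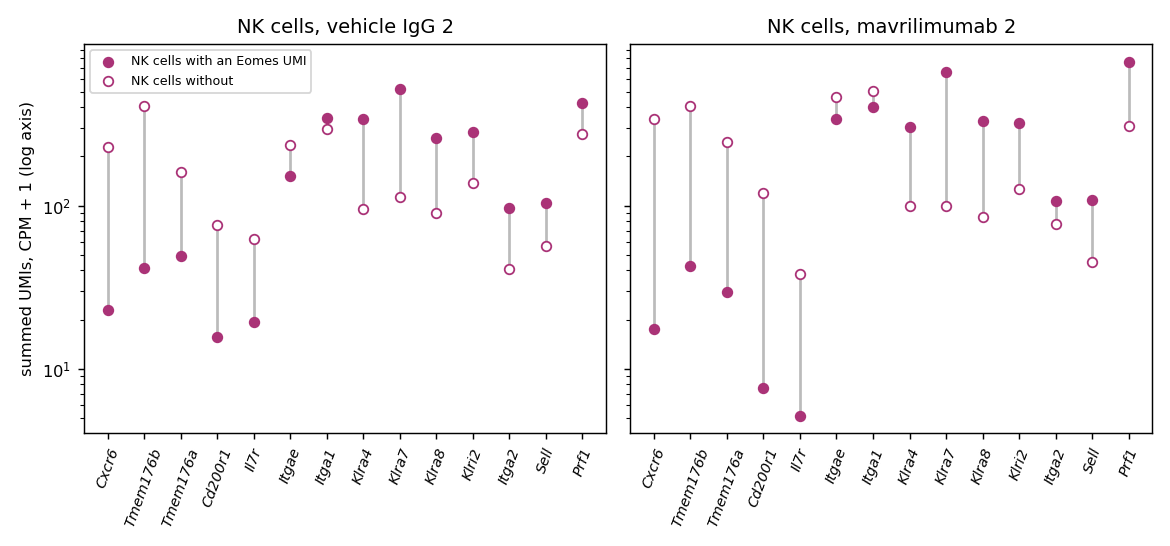
Filled points are NK cells with an Eomes UMI and open points those without, as UMIs summed over cells in CPM + 1 on a log axis, for 14 genes in the libraries labelled vehicle IgG 2 (left, 75 and 331 cells) and mavrilimumab 2 (right, 168 and 139 cells). Cxcr6, Tmem176a, Tmem176b, Cd200r1 and Il7r lie lower with Eomes in both panels, and Klra4, Klra7 and Klra8 lie higher.

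To ask how NK cells differed between treatments, the sums of the library labelled vehicle IgG 2 were compared with those labelled mavrilimumab 1 and 2. The library labelled vehicle IgG 1 held 4 NK cells and was left out, so the control side had 1 library, which is assumed to vary like the others. Of 11175 genes tested, 1061 (9.49%) passed, 40 higher with the label mavrilimumab (0.358%) and 1021 lower (9.14%). The lowest log2 fold changes belonged to neural genes. Tnr, Cadm2, Myt1l, Tubb3, Lrrc4c and Nol4 had values of -10.97 to -10.23, with 89.8 to 151 CPM in NK cells labelled vehicle IgG 2 and 0 UMIs in both libraries labelled mavrilimumab. These fitted values depend on the prior count, and against a floor of 3 UMIs over both libraries the 6 genes were at least 120-fold (Nol4) to at least 202-fold (Tnr) lower.

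The same direction was seen outside NK cells. Of the 1021 lower genes, 1020 differed with the same sign in CD8 T cells of these libraries, and 967 were at a higher CPM in barcodes of 10 to 100 UMIs than in NK cells of the library labelled vehicle IgG 2. Their summed level was 72972 CPM in NK cells, 57926 CPM in CD8 T cells and 179134 CPM in those barcodes of that library. It was 3237 CPM in the 4 NK cells of the other library labelled vehicle IgG, close to the 3258 and 4368 CPM of the libraries labelled mavrilimumab. Barcodes of 10 to 100 UMIs numbered only 6703 in the library labelled vehicle IgG 2, against 113600 to 135305 in the others. The comparison with these barcodes may thus not mean the same in each library. Of 12 neural or tumor markers, 11 were lower, and they summed to 35.6, 3004, 10.5 and 48.8 CPM in NK cells of the 4 libraries. With all 4 libraries in the fit, an alternative added after the data were seen, edgeR called no gene lower and 1 higher, and DESeq2 called 171 lower and 2 higher with 3 libraries.

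**Figure D5:**
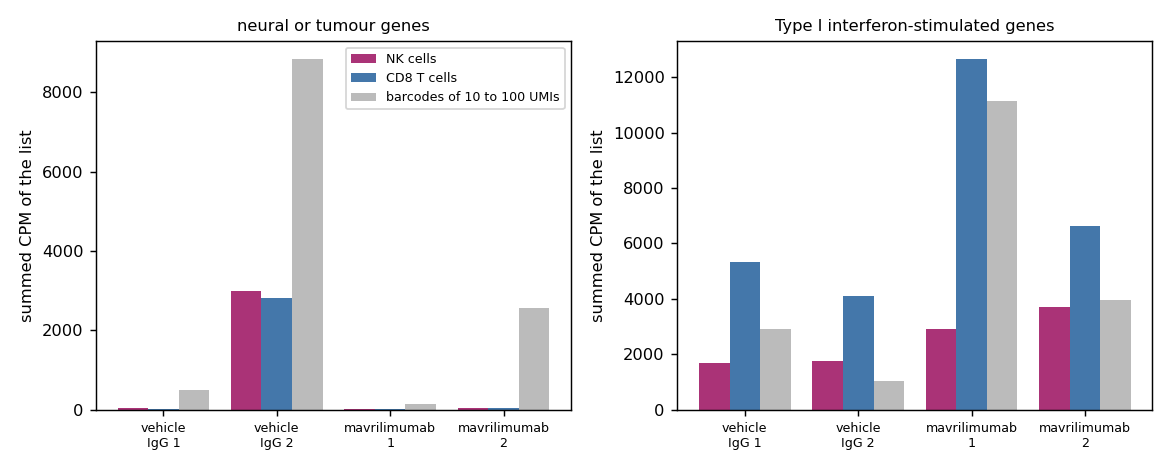
Bars are the summed CPM of 12 neural or tumor genes (left) and of 34 interferon-stimulated genes (right) in NK cells, CD8 T cells and barcodes of 10 to 100 UMIs of each library, from 0. Neural genes reach 3004 CPM in NK cells of the library labelled vehicle IgG 2 and at most 48.8 CPM in the others; the interferon sum is lower in NK than in CD8 T cells in each library.

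The 40 genes that were higher with the label mavrilimumab often rested on few cells. For 25 of them, at least 50% of the UMIs in the library labelled mavrilimumab 1 sat in 1 of its 14 NK cells. Others were spread over more cells, such as Klra7, with a UMI in 8 of these 14 cells and in 117 of the 307 labelled mavrilimumab 2. Ccl1, a chemokine, was the gene that also passed with all 4 libraries, at 0 and 11.3 CPM with the label vehicle IgG (replicates 1 and 2) and 263 and 369 CPM with the label mavrilimumab (log2 fold change 4.88; edgeR adjusted p = 2.0e-12). A single cell held 25 of its 25 UMIs in the library labelled mavrilimumab 1, and a single cell held 1343 of 1446 in that labelled mavrilimumab 2. The other genes with the highest log2 fold changes were Fam178b at 7.53, Il4i1 at 3.87, Mx2 at 3.52, Tnfsf4 at 3.49 and Cmya5 at 3.35, each with 1.51 to 3.78 CPM in the library labelled vehicle IgG 2 except Fam178b. Fam178b had 0 there and was at least 3.30-fold higher against a floor of 3 UMIs in that library, so that its fitted value depends on the prior count.

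Among the lists, 5 of 33 interferon genes tested were higher with the label mavrilimumab (Mx1, Oasl1, Usp18, Rtp4 and Ifi206) and none lower, with a median of 1.22 against -0.04 over all genes. Usp18, which curbs interferon signaling, was at 17.8 and 29.4 CPM in NK cells of the label vehicle IgG and at 105 and 123 CPM in NK cells of the label mavrilimumab (log2 fold change 2.06; edgeR adjusted p = 0.001). The values did not overlap, but 17.8 CPM is the level of 1 UMI in the 4 NK cells labelled vehicle IgG 1. Other lists had positive medians between the labels too, such as 0.80 for lectin-like receptors and 0.63 for MHC class I. Homing genes had 0.61 and cytotoxic genes 0.60. The lists of ILC1 and residency and of immediate early and heat shock genes had -0.06 and -0.08. No interferon gene was called with all 4 libraries or by DESeq2. None of the 34 was called in the test of whether the difference between treatments was another one in NK than in CD8 T cells. Of 12 lectin-like receptor genes, Klra3, Klra5 and Klra7 were higher, by 1.52, 1.73 and 1.68, although Klra5 had no UMI in the library labelled mavrilimumab 1. Gzmc was higher by 1.64, and Il7r was lower, at -1.71. Of the cell cycle genes, Mki67 and Top2a were called higher, by 1.59 and 1.47, but the single cell above set their level in the library labelled mavrilimumab 1, and in that labelled mavrilimumab 2 they were at 28.4 and 32.2 CPM, below the 82.3 and 92.1 CPM of the library labelled vehicle IgG 2. None of the 16 activating receptor genes, 14 transcription factors, 14 homing genes and 14 MHC class I genes was called.

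Whether the difference between treatments was another one in NK than in CD8 T cells was tested as an interaction. It was called for 57 of 14618 genes (0.39%), 39 in the higher (0.267%) and 18 in the lower direction (0.123%). Among list members these were Gzmc, by 1.90 (edgeR adjusted p = 8.6e-06), and Klra7, by 2.10 (edgeR adjusted p = 0.0096). In NK cells of the 3 libraries tested there were 3300, 10984 and 9454 CPM of Gzmc, the second of these set mostly by 1 cell as given above, and 195, 851 and 445 CPM of Klra7. The 4 NK cells labelled vehicle IgG 1, which the test left out, had 2063 CPM of Gzmc and 551 CPM of Klra7, so that for Klra7 the labels overlapped. In CD8 T cells there were 63.9, 21.6 and 117 CPM of Gzmc and 94.3, 29.1 and 137 CPM of Klra7. With all 4 libraries, or by DESeq2, neither gene was called.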

How the data were processed

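The authors made 10x 5′ libraries of sorted cells and deposited unfiltered matrices of raw UMI counts per gene and barcode, of which 4 expression libraries were used here, and contig tables with read and UMI counts, of which 3 of 4 TCR libraries were used here. The submitters' processing notes name Cell Ranger 7.1.0, Scanpy 1.8.2 and the build mm10, whereas the matrix headers name Cell Ranger 9.0.1. Barcodes were gated as described, no doublet caller was run and no doublets were removed, and UMIs were summed per library and class. Libraries held 24354457 to 148657643 UMIs.

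Sums were tested with edgeR 4.0.16 (quasi-likelihood, TMM, Benjamini-Hochberg) in R 4.3.3, for classes with the library as a block. Each SE is the absolute log2 fold change divided by the square root of the F statistic of the test, not a separately fitted standard error. DESeq2 1.42.0 and limma-voom (limma 3.58.1) were alternatives. The fits were also run on simulated counts with known changes. These counts held no difference between libraries other than depth, no free RNA and no single cells with many UMIs. They therefore cannot show how such features affect the calls given here. Shares were compared with exact permutation tests, and intervals are exact binomial (Clopper-Pearson, 95%). Thinning, contigs and sums used Python 3.11.15, numpy 2.4.6, scipy 1.17.1 and pandas 2.3.3. The study describes the libraries of a group as pooled experiments and the labels do not name the mice in each pool, so p-values measure the spread between pooled libraries, not between mice.

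Named genes were the 12 highest and 12 lowest log2 fold changes between classes among called genes with at least 20 CPM in the higher class and one direction in all libraries, up to 6 per direction for treatment and interaction whose groups did not overlap, and members of lists. NK cells, gates and lists were chosen with earlier results of these data known. Deviations from group means of the libraries that share a replicate number correlated at 0.172 in NK and 0.517 in CD8 T cells over 7233 genes, and the labels do not say that a number marks a shared batch. Values of some genes are not reported here.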

Additional observations from a re-analysis of the deposited data

Results flagged for a closer look

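For 12 genes the difference between the libraries labelled mavrilimumab and that labelled vehicle IgG 2 was another one in NK than in CD8 T cells by the interaction term (edgeR), and the values below are that difference on the log2 scale. It was positive for Ror1 (6.09), Phactr3 (6.04), Gstm1 (5.36), Vegfc (5.17), Ccl1 (5.01) and Tiam2 (4.70). Except for Ccl1, these genes were detected in CD8 T cells labelled vehicle IgG 2 and were near 0 in those labelled mavrilimumab, while NK cells had them in all 3 libraries. Vegfc, a growth factor of lymphatic vessels, was at 30.2, 52.6 and 36.3 CPM in NK cells (label vehicle IgG 2, then both with the label mavrilimumab) and at 4.69, 0.0962 and 0.188 CPM in CD8 T cells. Gstm1, a glutathione transferase, was at 49.8, 52.6 and 87.9 CPM in NK cells and 31.6, 0.577 and 1.51 CPM in CD8 T cells. Ror1 had all 5 of its UMIs in the library labelled mavrilimumab 1 in 1 NK cell. Ccl1 was at 11.3, 263 and 369 CPM in NK cells and 6.54, 1.35 and 12.4 CPM in CD8 T cells, with the 2 highest values set by 1 cell each.

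It was negative for Cadm2 (-8.31), Tmem108 (-7.94), Tnr (-7.87), Tafa1 (-5.89), Apbb2 (-5.13) and Nlgn1 (-5.13), which are neural genes or are known from neurons, with at most 1 UMI in NK cells of each library labelled mavrilimumab, so that these fitted values depend on the prior count. In CD8 T cells their values there were 0 to 25.0 CPM. These libraries held 14 and 307 NK cells against 2026 and 1895 CD8 T cells, and the part of this difference in number and of free neural RNA was not tested.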

How the results depend on the processing

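Counts of called genes and their split into higher and lower depended on the fit. Among genes named for the highest and lowest log2 fold changes, 1 turned direction in 1 alternative, as given below. For NK against CD8 T cells (1448 genes, 623 higher and 825 lower), DESeq2 called 926 with 464 lower, limma-voom called 1147 higher, and no filter on low counts gave 2175 with 1302 lower. Leaving out barcodes with other-type markers, which left few NK cells, gave 419 (177 higher, 242 lower), and CD8 T cells sampled to the NK number gave 843 with 388 lower. Without the replicate block, which here is the library, 198 were called (91 and 107). Leaving out 1 library gave 642 to 1726 genes, 251 to 786 higher and 391 to 940 lower (547 lower without vehicle IgG 2).

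For treatment in NK cells (1061, 40 higher and 1021 lower), DESeq2 called 173 (2 and 171), limma-voom 2323 (469 and 1854), no filter on low counts 1831 with 1793 lower, and a minimum of 2000 UMIs 89 higher. All 4 libraries gave 1 (1 and 0, with Ccl1 as the call), the replicate block with all 4 libraries gave 5 (1 and 4), and leaving out genes at a higher CPM in low-UMI barcodes left 88 with 54 lower. For the interaction (57, 39 and 18), DESeq2 called 6 (6 and 0), limma-voom 16 (15 and 1), both NK genes required 25 higher, all 4 libraries 36 with 21 higher, the replicate block with all 4 libraries 18 higher, sampled CD8 T cells 28 with 8 higher, and CD8 T cells without Ncr1 or Klrb1c 66 higher and 10 lower. The interaction of Nlgn1 turned to 0.28 under DESeq2. For the genes named for the highest and lowest log2 fold changes, not for members of lists, all 441 alternatives of NK against CD8 T kept the direction and call. For treatment 89 did and 25 lost the call, and for the interaction 128 did and 39 lost it.

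The difference in NK share of kept barcodes was -0.744 to 4.63 percentage points when 1 library was left out. It was -4.45 to 5.29 for NK and T cells (-2.52 without vehicle IgG 1), and -12.0 to 3.49 per 100 CD8 T cells (2.81 without vehicle IgG 2), and the replicate block changed none. Thinning to 1000 UMIs gave Klre1 in 39.9% and 54.7%, Klra8 in 10.1% and 17.6%, and Eomes in 9.11% and 14.3% of NK cells labelled vehicle IgG 2 and mavrilimumab 2, and Eomes in 14.3% of those labelled mavrilimumab 1. Any TCR contig was found in 75.0% (vehicle IgG 1), 71.4% (mavrilimumab 1) and 55.4% (mavrilimumab 2) of NK cells, and without the Cd3 limit a productive one in 57.9% and 45.6% of the latter. Treatment and interaction had no residual degrees of freedom with the replicate block in 3 libraries, with a minimum of 20 NK cells, with other-type markers left out and without either library labelled mavrilimumab, and could not be fitted without vehicle IgG 2. NK cells per 100 CD8 T cells with other-type markers left out gave no value. All 4 libraries, the block with all 4 and the CD8 T alternatives were chosen after seeing the data, except the sampling. The causes were not tested.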
